A study of Mus musculus with 7 samples.

Results

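The AMPK-related kinases that act downstream of LKB1 were examined in sorted mouse blood stem and progenitor cells with and without the LKB1 gene. The genes sought were Snrk, Mark1, Mark2, Mark3, Mark4, Sik1, Sik2, Sik3 and Nuak2. Members were all probe sets whose single gene symbol in the array annotation was one of these names, which gave 15 of 22626 non-control probe sets for 6 of the 9 genes. Mark1 had 5 probe sets, Mark2 and Mark4 had 3 each, Snrk had 2, and Mark3 and Sik1 had 1 each. No probe set carried the single symbol Sik2, Sik3 or Nuak2, so these kinases were not analysed here. The labels name the Affymetrix mouse 430 2.0 chip, whereas the values hold 22690 probe sets, fewer than that chip is known to carry, so the array design behind the values is uncertain.

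RNA came from LSK cells, which lack lineage markers, carry Sca-1 and c-Kit, and are enriched for haematopoietic stem cells. The KO group was 4 samples (numbers 4 to 7) from adult Lkb1 L/L mice that also carried rosa26CreERT2, a tamoxifen-activated Cre recombinase. The WT group was 3 samples (numbers 5 to 7) from Lkb1 L/L mice without Cre. Mice of both groups were C57BL/Ka-CD45.2:Thy-1.1, both groups carried the floxed alleles, and both received tamoxifen for 5 days, so Cre itself was present in the KO group alone. The Rosa26 locus is active in nearly all cell types, so this Cre is not specific to blood cells, and how far Lkb1 was deleted was not measured here. The bone marrow was taken from femur and tibia 1 day after the last injection, and 15000 to 20000 cells were sorted per sample. Age was not given in the labels. Nothing in the labels says that the samples came from different mice, and the spread behind each p-value may be technical.

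LKB1 is a serine/threonine kinase that works in a complex with a STRAD pseudokinase and the scaffold MO25. It activates AMPK and a family of relatives by phosphorylating a conserved threonine in their activation loop, so its control of these kinases acts on the proteins and need not alter their mRNA. The MARK kinases phosphorylate microtubule-associated proteins and help set cell polarity. The salt-inducible kinases (SIK) hold CRTC coactivators and class IIa histone deacetylases in the cytoplasm and so restrain CREB and MEF2 target genes. SNRK is a more distant relative that is also activated by LKB1, and NUAK2 acts on the myosin phosphatase. In blood stem cells LKB1 is known to be needed for survival and quiescence.

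The arrays differed in overall brightness and in cell type markers. The median deposited signal ran from 42.8 to 63.7 over the WT arrays and from 64.6 to 76.2 over the KO arrays, without overlap, and arrays were therefore quantile normalized. A two-sided exact permutation test on 7 arrays gives p = 0.0571 for such a separation as scipy counts it. That is the smallest p under this counting, so the test cannot reach 0.05, and a p above 0.05 from it does not show that the groups are alike. The 3' to 5' ratio of the Actb control, a sign of RNA quality, ran from 12.6 to 13.1 over WT arrays and from 11.4 to 12.3 over KO arrays, also without overlap. It thus cannot be told apart from genotype. Of 7 LSK markers on the array, all were above background on all 7 arrays, as were the B cell markers Cd79b and Ms4a1, 2 of 4. Cd79a and Pax5 were above it on no array, and of 5 T and NK cell markers none was above it on all arrays (Cd8a on 5, Cd3e and Cd3g on none). Of 9 neutrophil and monocyte markers, 6 were lower in KO in limma at an adjusted p under 0.05, and the summed normalized signal of the list ran from 11790 to 16842 over KO arrays and from 28425 to 38053 over WT arrays. In the same list Csf1r was at 0.75 (limma adjusted p = 0.0958) and Itgam at 0.40 (adjusted p = 0.0796). The mast cell and basophil sum was 2064 to 2660 over KO arrays, above the 1443 to 1527 of WT arrays, with Cpa3 called higher. The erythroid sum was 677 to 825 over KO arrays, below the 909 to 1181 of WT arrays, with Ermap called lower and Hba-a2 higher. The LSK marker sum ran from 11174 to 12015 over KO arrays and from 14278 to 15475 over WT arrays, with 1 of 7 lower (Hlf). All these sums are of normalized signal. As deposited, the means of Cd34, Flt3, Procr and Gata2 were higher in KO and those of Kit, Meis1 and Hlf lower. Of the erythroid markers, Epor and Hba-a2 were then higher in KO, and Klf1, Car1 and Ermap lower. Stk11, the gene of LKB1, had normalized log2 means of 7.40 ± 0.24 in the 3 WT arrays and 6.84 ± 0.33 (SD) in the 4 KO arrays in its brighter probe set (limma adjusted p = 0.135). A dimmer one, 1448062_at, stood the other way at 0.71 and was above background on 3 of 4 KO and 1 of 3 WT arrays. The position of both relative to the deleted exons is not known, and neither serves as a test of the genotype.

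Background was set from 27 control probe sets for bacterial transcripts, whose deposited signals had a 95th percentile of 13.6. Snrk, Mark2, Mark3 and Sik1 were above that level on all 7 arrays in each of their probe sets. Mark4 was above it on all 7 arrays in 1 of its 3 probe sets, and Mark1 in none of its 5. Levels of different probe sets are not compared, because probes differ in affinity. The precision of every value is limited by the number of arrays.

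Of the 15 probe sets, 8 passed the filter on dim probe sets (mean above the 40th percentile) and were tested. They belonged to Snrk, Mark1, Mark2, Mark3 and Mark4. None of the 8 passed limma's test at an adjusted p under 0.05, against 547 of 13575 probe sets tested overall (4.03%, or 1.94% lower). At an unadjusted p under 0.05 there were 3 of the 8, beside 23.6% of all tested probe sets. The same 3, namely both Snrk probe sets and 1 of Mark2, had KO values wholly below WT values, beside 10.9% of all tested probe sets, or 22.5% when either direction counts. For these 3 the exact permutation test gave its smallest p (p = 0.0571). When splits are counted by absolute difference, a counting chosen after those values were seen, the smallest p is 0.0286 and the same 3 of 8 fall under 0.05, against 0 of 8 otherwise. In bulk samples, fewer cells of a type and less RNA per cell cannot be told apart.

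**Figure D1:**
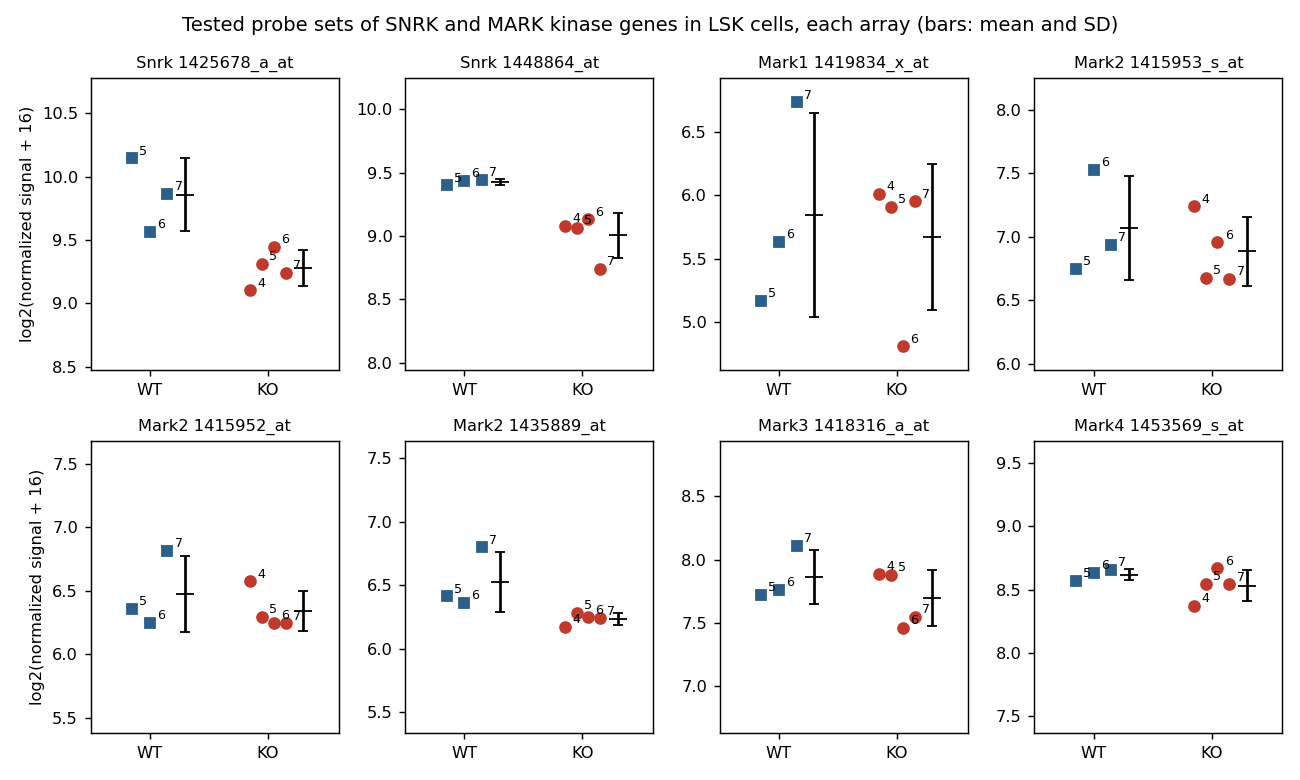
log2(quantile-normalized signal + 16) of the 8 tested probe sets on each array, numbered by replicate, with black bars for the mean and SD of WT (n = 3) and KO (n = 4); each panel spans the same range of log2 units. KO points lie below all WT points for both Snrk probe sets and for Mark2 1435889_at, and overlap with WT in the other 5 panels.

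Snrk had the lowest p of the kinases in both of its probe sets. In probe set 1425678_a_at, the normalized log2 values were 9.10, 9.31, 9.45 and 9.24 on arrays KO 4 to 7, against 10.14, 9.56 and 9.87 on arrays WT 5 to 7. Every KO array lay below every WT array, the nearest being KO 6 and WT 6. The means were 9.28 ± 0.14 (SD, n = 4) and 9.86 ± 0.29 (SD, n = 3), a difference of -0.58 ± 0.15 (SE) with a 95% confidence interval of -0.93 to -0.23. This is 0.668 times the WT level, did not pass over all probe sets (limma adjusted p = 0.0703), and had the smallest exact permutation p (p = 0.0571).

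The other Snrk probe set, 1448864_at, stood in the same order. Its log2 values were 9.08, 9.06, 9.13 and 8.74 on arrays KO 4 to 7, against 9.40, 9.44 and 9.44 on arrays WT 5 to 7. The WT arrays were close to each other (SD 0.023, n = 3), and KO 7 was the lowest of all arrays. The difference was -0.42 ± 0.11 (SE), with an interval of -0.69 to -0.16 (limma adjusted p = 0.0785, exact permutation p = 0.0571). Within arrays, the gap between the 2 probe sets differed by 0.16 log2 units between KO and WT (exact permutation p = 0.457, from a test that cannot fall under 0.0571). After group means were removed, the 2 probe sets hardly moved together over the 7 arrays (Pearson r = 0.057, as a description).

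The Snrk difference depended on the scaling between arrays. For 1425678_a_at, the deposited signal was 1089.7, 658.3 and 588.1 on WT 5, 6 and 7, and 667.4, 709.0, 713.8 and 612.6 on KO 4, 5, 6 and 7. On that scale only WT 5 stood above the KO arrays. For 1448864_at they were 656.5, 597.4, 569.4 and 424.1 in KO and 649.2, 597.9 and 436.2 in WT, with full overlap. Without scaling the differences were -0.15 and 0.0038 log2 units, while the median of all tested probe sets was 0.35. Both Snrk probe sets thus lay low among the tested probe sets on either scale. The share of tested probe sets with a lower change was 2.82% and 6.61% after normalization and 4.84% and 11.0% as deposited. By normalized signal, neutrophil, erythroid and LSK marker sums were lower and mast cell marker sums higher in the same KO arrays. As deposited, the LSK and erythroid markers went both ways. The Actb 3' to 5' ratio was also lower in every KO array. The part of these differences in the Snrk result was not tested.

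Among the MARK kinases, Mark2 was measured by 3 probe sets above background on every array. Probe set 1435889_at had log2 values of 6.17, 6.28, 6.25 and 6.24 on arrays KO 4 to 7, against 6.41, 6.36 and 6.80 on arrays WT 5 to 7. The KO arrays lay within a narrow range below all WT arrays, and WT 7 stood highest. The difference was -0.29 ± 0.12 (SE), with an interval of -0.57 to -0.01 (limma adjusted p = 0.202, exact permutation p = 0.0571). Without WT 7 it was -0.16. As deposited, its signals were 61.2 to 68.6 in KO and 60.3 to 70.7 in WT, a difference of -0.0043 with overlap.

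The other Mark2 probe sets overlapped between the groups. In 1415953_s_at, a design whose probes can match transcripts of more than 1 gene, log2 values were 7.24, 6.68, 6.96 and 6.67 in KO and 6.75, 7.53 and 6.94 in WT. WT 6 was the highest and KO 7 the lowest. In 1415952_at they were 6.58, 6.30, 6.25 and 6.24 in KO and 6.36, 6.25 and 6.82 in WT, with KO 4 and WT 7 above the rest. The differences were -0.18 (95% confidence interval -0.68 to 0.31, limma adjusted p = 0.643) and -0.13 (-0.50 to 0.23, limma adjusted p = 0.646). Without WT 6 the first turned to 0.04, and without WT 7 the second turned to 0.04. Within arrays, the gaps of 1415952_at and 1435889_at to 1415953_s_at differed by 0.05 and -0.11 log2 units between KO and WT, with no call possible from the exact test.

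Mark3, which is also known as C-TAK1 for its action on the phosphatase CDC25C, had 1 probe set, 1418316_a_at. Its log2 values were 7.89, 7.88, 7.46 and 7.55 on arrays KO 4 to 7, against 7.72, 7.76 and 8.11 on arrays WT 5 to 7. KO 6 and KO 7 were the lowest, WT 7 the highest, and KO 4 and KO 5 lay among the WT arrays. The difference was -0.17 ± 0.15 (SE), with an interval of -0.52 to 0.18, or 0.697 to 1.13 times the WT level (limma adjusted p = 0.542). Without WT 7 it was -0.05, and without KO 6 it was -0.09.

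Mark4 was the most tightly bounded of the tested kinases. Its bright probe set, 1453569_s_at, is also of a design whose probes can match transcripts of more than 1 gene. It had log2 values of 8.37, 8.54, 8.67 and 8.54 on arrays KO 4 to 7, against 8.57, 8.63 and 8.66 on arrays WT 5 to 7. The groups overlapped, KO 4 being the lowest array and KO 6 the highest. The difference was -0.09 ± 0.10 (SE) with an interval of 0.803 to 1.10 times the WT level (limma adjusted p = 0.633). It ran from -0.13 without KO 6 to -0.03 without KO 4. On the deposited scale the same probe set was higher in every KO array, at 368.9 to 406.0 against 254.7 to 362.5 in WT, beside 32.5% of all tested probe sets that did not overlap on that scale. Of its dimmer probe sets, 1456618_at was above background on 3 of 4 KO and 2 of 3 WT arrays (WT 5, at 12.5, only by that array's own level of 11.7), and 1439051_a_at, at 0.8 to 2.1, on none.

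Mark1 was dim in all of its probe sets. Only 1419834_x_at, a design in which some probes can match other sequences, passed the filter, with deposited signals of 58.5, 47.6, 12.3 and 46.6 on arrays KO 4 to 7, against 20.3, 32.0 and 61.1 on arrays WT 5 to 7. KO 6 was the lowest of all arrays and the only one under the pooled background level, though above the 95th percentile of its own controls (9.22), as the other 6 arrays were above theirs. The other 3 KO arrays lay between WT 6 and WT 7. On the normalized scale the difference was -0.17 with a wide interval of -1.12 to 0.78 (limma adjusted p = 0.835), and it turned to 0.11 without KO 6 and to 0.28 without WT 7. By the pooled level, the other 4 Mark1 probe sets were not above background on any KO array, and in WT 1 reading was, at 26.9 in WT 5 for 1425509_at. By each array's own controls, 1425509_at in KO 6 (11.1) and 1425511_at in WT 7 (8.8) were also above.

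Sik1, the salt-inducible kinase whose own transcription responds to CREB, was measured by 1 probe set, 1419766_at. Its mean lay at the 39.4th percentile of probe sets, just under the filter, so it has no limma p. The deposited signal was 45.8, 17.9 and 19.9 on WT 5, 6 and 7, and 38.0, 48.2, 27.3 and 19.4 on KO 4, 5, 6 and 7. Both groups held bright and dim arrays, with KO 5 and WT 5 the highest of their groups. The normalized log2 mean was 5.49 ± 0.41 (SD) over 3 WT arrays and 5.51 ± 0.33 over 4 KO arrays, a difference of 0.02 (exact permutation p = 0.971).

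As a group, the 8 tested probe sets ran from -0.58 to -0.09 log2 units after quantile normalization, with a median of -0.18, beside 0.01 for all tested probe sets. All 8 were below 0, beside 49.2% of all tested probe sets, and they stand for 5 genes, so they are not independent. As deposited, 2 of the 8 were below 0 and all 8 were below the median of all tested probe sets. With median centring, Mark4 turned to 0.04 and the other 7 were below 0. The median was -0.27 without KO 4, -0.34 without WT 5 and -0.11 without WT 7, and 6 of 8 were below 0 without WT 7 and 7 of 8 without KO 6. Without WT 6 and without KO 7, Sik1 also passed the filter, and 8 of 9 were below 0 in each fit. The exception was Mark2 1415953_s_at at 0.04 without WT 6 and Sik1 at 0.14 without KO 7. The values are a description of this list and no test of it was made.

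**Figure D2:**
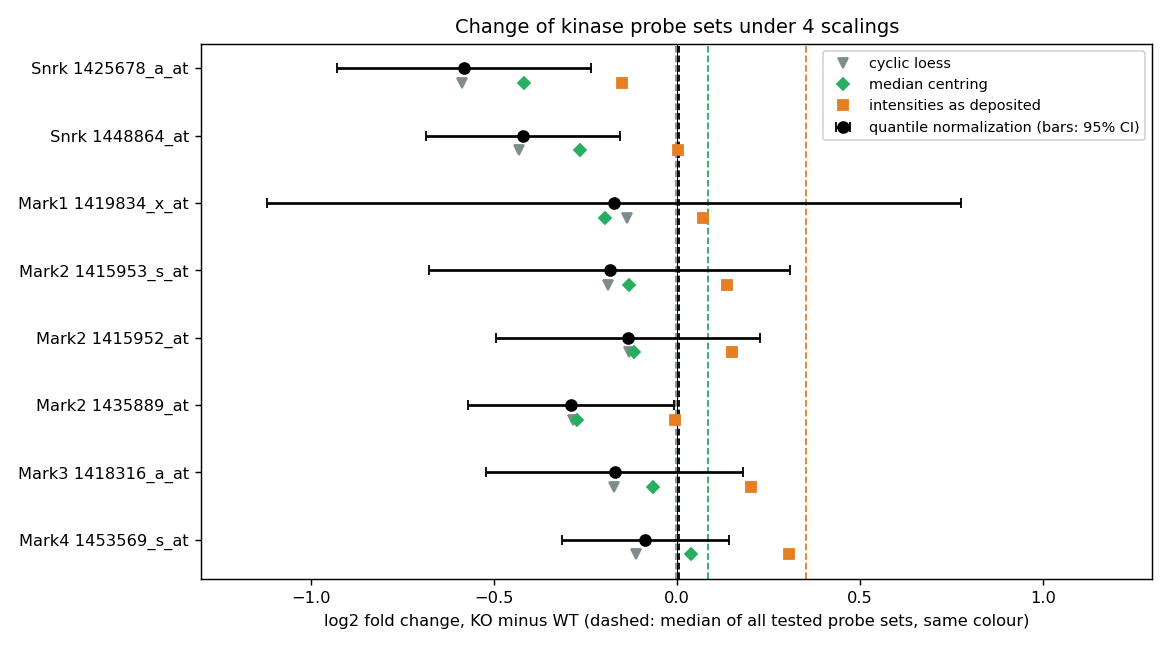
log2 fold change (KO minus WT) of the 8 tested probe sets after quantile normalization (black, with 95% confidence intervals from limma) and under 3 other scalings (coloured symbols); dashed lines mark the median of all tested probe sets under each scaling. Scaling as deposited (orange) moves every kinase to the right, as it moves the median to 0.35, and Snrk 1425678_a_at is farthest left under all 4.

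Genes that work with these kinases were taken from 10 lists of 95 genes, of which 63 had a tested probe set. By the brightest probe set of each gene, 1 fell and none rose (limma adjusted p under 0.05), beside 4.22% of 8077 genes in either direction (2.30% lower, 1.92% higher). The one that fell was Gab1, an adaptor of receptor tyrosine kinases, in the list of MARK substrates and polarity proteins (1 of 13). Probe set 1417693_a_at of Gab1 had deposited signals of 937.4, 862.5, 873.8 and 768.0 in KO and 1143.1, 1135.8 and 645.0 in WT. Its normalized difference was -0.57 ± 0.11 (SE, limma adjusted p = 0.0353), and a second, dimmer probe set was at -0.21. The call was not made as deposited (-0.13), with median centring, or in any of the 7 fits without 1 sample.

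In the same list, Cdc25c, the mitotic phosphatase, was at 0.29 (limma adjusted p = 0.270) and the microtubule-binding protein gene Map4 at 0.14 (adjusted p = 0.469), both chosen after their values were seen. The probe sets of Mapt, Map2 and Dcx, whose products bind microtubules in neurons, lay under the filter.

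None of 4 tested CRTC coactivators and class IIa histone deacetylases passed. The lowest p was that of Hdac7 at -0.41 in its brightest probe set (limma adjusted p = 0.112). Its dimmer probe set, 1420812_at, stood at 0.08 (limma adjusted p = 0.903). The median of this list was -0.34, the lowest of the related lists, and -0.03 as deposited. Of 6 CREB and MEF2 factors none passed, with the coactivator gene Crebbp at -0.29 (adjusted p = 0.192). Of 11 CREB and CRTC target genes none passed either. Their median was -0.33, beside -0.02 for all genes, and as deposited it was 0.03 beside 0.34. The member of lowest p was the antiproliferative gene Btg2 at -0.36 (limma adjusted p = 0.115). By the brightest probe set, the 11 genes ran from -0.54 for the immediate early gene Egr1 (adjusted p = 0.216) to 0.22 for the nuclear receptor gene Nr4a2 (adjusted p = 0.484).

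Among other kinases of the family, Melk, which LKB1 does not activate, was at 0.29 (limma adjusted p = 0.138) and Hunk at -0.32 (adjusted p = 0.446). In the LKB1 complex none of 4 passed. Cab39, which encodes MO25, had probe sets that disagreed, at 0.56 in 1418432_at (adjusted p = 0.0699) and at -0.03 in the brightest. None of 3 AMPK beta and gamma subunits passed by the brightest probe set, and the lowest p was in a dimmer one of Prkag2 at -0.45 (adjusted p = 0.0533).

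Of 9 other regulators, none passed by the brightest probe set. A dimmer probe set of Map3k7, the gene of the kinase TAK1, rose by 0.50 ± 0.09 (SE, limma adjusted p = 0.0315), and 1425795_a_at stood at 0.41 (adjusted p = 0.0799), while the brightest was at -0.18 and the remaining ones at 0.02 and -0.34. Among 6 tested genes of 14-3-3 proteins, which bind the sites that these kinases phosphorylate, Ywhaz had a called probe set. Its 1448218_s_at rose by 0.57 ± 0.12 (limma adjusted p = 0.0429) and its 1448219_a_at was at 0.44 (limma adjusted p = 0.0740). In both, KO lay wholly above WT, as in 1573 of all 13575 tested probe sets. The other 5 Ywhaz probe sets ran from -0.07, in the brightest, to 0.39. Neither the Map3k7 nor the Ywhaz probe set that rose passed in any of the 7 fits without 1 sample. Of 5 genes of the myosin phosphatase and myosin light chains none passed, Mprip having the lowest p at -0.19 (adjusted p = 0.308).

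**Figure D3:**
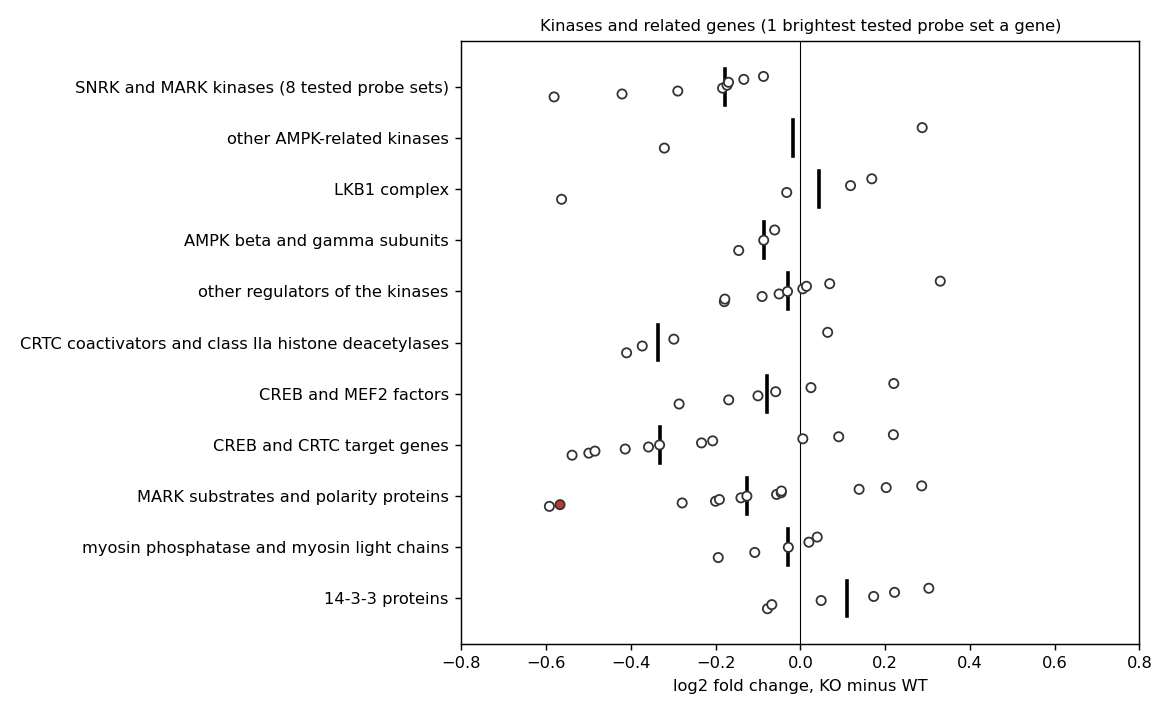
log2 fold change (KO minus WT) after quantile normalization for the 8 tested kinase probe sets (top) and for genes of the 10 related lists by the brightest tested probe set of each gene; vertical bars are medians and the filled point is the one gene past the adjusted threshold, Gab1. Most points lie within 0.6 log2 units of 0, and the vertical spread within a list only separates points.

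The 3 genes whose pattern over the 7 arrays was most like Snrk 1425678_a_at were Arid2 (Pearson r = 0.992), a subunit of a SWI/SNF chromatin remodeller, Sgk1 (r = 0.981), a serum- and glucocorticoid-induced kinase, and Themis2 (r = 0.979). After group means were removed, r was 0.976, 0.933 and 0.979. They are the highest of 13575 probe sets over 7 arrays that share the normalization, and are given as a description.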

How the data were processed

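LSK RNA of 7 samples (4 KO, 3 WT) was measured on 1 microarray each, from about 10 ng of amplified, biotin-labelled RNA, per the labels' protocols. The authors deposited 1 linear signal intensity per probe set and array, and the submitters' processing notes name MAS5. The sources used here give neither its settings nor its version. Probe sets (22690, of which 64 controls) were named from the platform annotation: 20380 had 1 gene symbol, 691 several and 1555 none, and 20351 of the first matched RefSeq genes of GRCm38.p6 by gene ID. Annotated and current symbols gave the same members.

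Intensities were quantile normalized over non-control probe sets and analysed as log2(signal + 16), so fold changes understate those of dim genes. Probe sets with a mean above the 40th percentile (13575) were fitted with limma 3.58.1 in R 4.3.3 (genotype alone, 5 residual degrees of freedom), and p-values were adjusted by Benjamini-Hochberg over all of them. For single values, a two-sided exact permutation test over the 35 splits was run as scipy 1.17.1 gives it, with a smallest p of 0.0571. A second counting, by absolute difference with a smallest p of 0.0286, was added after the first values were seen, and results under it are given as that alternative. Of these, 15 tests covered the members and 3 the pairs of probe sets. The members, the lists and the normalization were chosen with earlier results of these data known. Named genes were all members, Stk11, every list gene with a called probe set or else the one of lowest p in its list, and 3 genes of most like pattern; any other gene named was chosen after its values were seen. On simulated arrays with 13575 probe sets, 66 of 100 changes of 1 log2 unit and 20 of 100 of 0.5 were recovered, with 2 false calls. No other probe set was changed and the noise was independent between probe sets, so these rates need not hold for the real arrays. Alternatives covered the pseudocount, scaling, filter, probe sets per gene, array weights, prior variance, a block for the replicate number and leaving out each sample. Same-numbered KO and WT samples had correlations of their deviations of 0.028, 0.119 and 0.023.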

Additional observations from a re-analysis of the deposited data

Results flagged for a closer look

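Among the 4 KO arrays, 2 of the 15 kinase probe sets had 1 array far from the other 3, and chance alone gives about 1 in 20 such groups. For Mark1 1419834_x_at, KO 6 was at 4.81 log2 units and the others at 5.91 to 6.01, with a deposited signal of 12.3, under the background level. For Mark2 1415952_at, KO 4 was at 6.58 and the others at 6.24 to 6.30, with a deposited signal of 97.0.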

How the results depend on the processing

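Over 18 alternatives, 121 of 137 fold changes of the tested kinase probe sets kept their sign and their side of the threshold, 5 passed it and 11 changed sign. The 5 were Snrk 1425678_a_at with pseudocount 64 (-0.55, limma adjusted p = 0.0422), and it and 1448864_at with the filter at the 60th percentile (adjusted p = 0.0379 and 0.0410) and with a trended, robust prior (0.0197 and 0.0372). So 1 of 8 kinase probe sets was lower with pseudocount 64, beside 428 of all 13575 tested. At the 60th percentile it was 2 of 4, beside 472 of 9050, and with the trended, robust prior 2 of 8, beside 594 of 13575. As deposited, 6 turned positive: Snrk 1448864_at 0.0038, Mark1 1419834_x_at 0.072, Mark2 1415953_s_at 0.14 and 1415952_at 0.15, Mark3 0.20 and Mark4 1453569_s_at 0.31; the last was at 0.038 with median centring. Of the fits without 1 sample, Mark1 turned to 0.11 without KO 6 and 0.28 without WT 7 (range -0.51 to 0.28), Mark2 1415953_s_at to 0.045 without WT 6 (-0.35 to 0.045) and 1415952_at to 0.037 without WT 7 (-0.25 to 0.037). Mark2 1435889_at ran from -0.38 to -0.16, Mark3 from -0.24 to -0.05 and Mark4 from -0.13 to -0.03. Snrk ran from -0.73 to -0.44 and from -0.46 to -0.33 in these fits, with adjusted p from 0.0778 to 0.168. The exact permutation test put 0 of 8 kinase probe sets under 0.05, which this counting cannot reach on 7 arrays (smallest p = 0.0571). Counting splits by absolute difference, chosen after seeing the data, put 3 under it (smallest exact p = 0.0286). They are the same 3 whose groups did not overlap, beside 22.5% of all tested probe sets that did not overlap in either direction.

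Of all probe sets, 283 were higher and 264 lower; 454 and 428 with pseudocount 64, 1999 and 45 as deposited (97.8% higher, against 51.7%), 784 and 186 with median centring (80.8% higher), 20 and 47 with no filter, 569 and 472 at the 60th percentile, and 703 and 594 with the trended, robust prior. Without 1 sample they ran from 11 to 44 higher and 35 to 68 lower. With the replicate number as a block, 0 and 2 passed in limma. Whether same-numbered samples were paired is not known. Their correlations were 0.028, 0.119 and 0.023, and those of other KO and WT pairs ran from -0.10 to 0.092. So few small values cannot settle it. Snrk was at -0.52 and -0.45 under the block (adjusted p = 0.219 and 0.203). Of the related genes, the 1 lower call (Gab1) was 0 as deposited, with median centring, with no filter, under the block and in each fit without 1 sample (0 to 0). Those higher were 4 as deposited, 2 with median centring and 1 with the trended prior. Apart from what the alternatives are built to change (the genes tested, the scaling, the samples), the cause was not tested. The 7 arrays limit what can be called: no kinase interval was narrower than that of Mark4. Dim signal limits Mark1, Sik1 and 2 probe sets of Mark4.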
